A study of Mus musculus with 8 samples.

Results

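The guanylate binding protein genes *Gbp2*, *Gbp3*, *Gbp4*, *Gbp5*, *Gbp6*, *Gbp7*, *Gbp8*, *Gbp9* and *Gbp10* were followed through the cell types of mouse islets. These 9 genes were taken by symbol from the 30406 genes listed for every library. Islets came from male C57BL/6 mice (C57BL6/J in the methods of the study) aged 12 to 16 weeks. For each of 2 replicates, the islets of 10 mice were pooled and then divided into 4 cultures of 18 h, so a replicate is a pool and not an animal. One culture was left untreated, one received cytokines (10 U/mL interleukin-1β and 150 U/mL interferon-γ), one received the cytokines together with 2 mM NMMA, and one received NMMA alone. NMMA (N-monomethyl-arginine) inhibits nitric oxide synthases, including the inducible enzyme encoded by *Nos2*. Dispersed cells were captured in droplets, giving 1 single-cell library per condition and replicate, and each captured RNA molecule was tagged near its 3′ end with a unique molecular identifier (UMI). Because 1 molecule gives 1 UMI whatever its length, levels were not scaled by gene length. A level below is a counts-per-million (CPM) value, the UMIs of a gene relative to all UMIs, each summed over the cells of 1 type in 1 library.

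Guanylate binding proteins are large GTPases that belong to the genes most strongly induced by interferon-γ. They assemble on the vacuoles and surfaces of intracellular bacteria and parasites, together with the smaller immunity-related GTPases, and they promote lysis of the invader and activation of inflammasomes. Interferon-γ binds a receptor made of *Ifngr1* and *Ifngr2*, which signals through the kinases *Jak1* and *Jak2*. Promoters of responsive genes often carry the interferon-γ activated site (GAS) or the interferon-stimulated response element (ISRE), the latter bound by *Irf1* and related factors. The family has been studied mostly in macrophages.

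The members lie in 2 clusters of the mouse genome (GRCm38, GENCODE gene models). *Gbp5* (142493978 to 142522344), *Gbp7* (142530342 to 142550149), *Gbp3* (142560026 to 142573209) and *Gbp2* (142620602 to 142638008) are on the forward strand of chromosome 3, with *Gbp2b* between *Gbp3* and *Gbp2*. *Gbp8* (105014150 to 105139540), *Gbp9* (105077630 to 105139539), *Gbp4* (105115767 to 105139586), *Gbp10* (105215699 to 105239533) and *Gbp6* (105270702 to 105293698) are on the reverse strand of chromosome 5. RefSeq promoters (GRCm38.p6, 250 bases before to 50 bases after a start site) were matched by symbol for 4 of the 9 members, *Gbp2*, *Gbp3*, *Gbp5* and *Gbp7*, and for *Gbp2b*. The 4 members had 5 promoter entries between them. For each gene an entry held the ISRE core (TTTC, any 2 bases, then TTTC again), and the remaining member entry held no match. The core was searched on both strands and occurs in 3.44% of the 32851 promoters. The windows of 30 bases around it are shown because the 4 members rose with cytokines in all 6 cell types tested while *Gbp2b*, between them, stayed near 0, and capitals mark the ISRE core.
Gbp2, chr3:142620594-142620623: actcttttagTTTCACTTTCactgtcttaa
Gbp2b, chr3:142594700-142594729: gtacttctaaTTTCACTTTCttctttatca
Gbp3, chr3:142559992-142560021: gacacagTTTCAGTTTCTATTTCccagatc
Gbp5, chr3:142496759-142496788: acttgtgtagTTTCAATTTCagtttagaga
Gbp7, chr3:142530273-142530302: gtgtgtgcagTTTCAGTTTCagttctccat

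All 5 windows are written 5′ to 3′ on the forward strand. Distances are counted from the RefSeq start sites. The ISRE core began 59 bases before the start site in *Gbp2*, 53 in *Gbp7*, 165 in *Gbp5* and 137 in *Gbp2b*. In *Gbp3* 2 overlapping copies began 45 and 39 bases before it. The GENCODE genes of *Gbp2* and *Gbp5* begin before these cores (at 142620602 and 142493978), so by those gene models both cores lie inside the genes. The GAS letters TTCNNNGAA, also searched on both strands, occur in 8.30% of all promoters, and were found at 2 places in each of *Gbp5* and *Gbp7* and in neither *Gbp2* nor *Gbp3*. In *Gbp7*, whose level was the highest of the members in untreated β-cells, the 250 bases before the start site held both kinds of motif, and capitals mark the GAS letters at 106 and 87 bases and the ISRE core at 53 bases before the start.
Gbp7, chr3:142530086-142530335: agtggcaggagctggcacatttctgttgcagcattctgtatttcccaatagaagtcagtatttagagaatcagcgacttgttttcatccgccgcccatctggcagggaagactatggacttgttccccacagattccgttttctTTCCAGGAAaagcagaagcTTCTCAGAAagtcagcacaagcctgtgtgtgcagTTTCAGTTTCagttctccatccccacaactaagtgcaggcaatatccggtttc

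A match of letters is a description of these windows and does not show that a factor was bound. The 3′ ends bear on how the counts can be read. Over the last 500 bases of its transcripts, 89.1% of the words of 90 bases in *Gbp10* occur also in *Gbp6*, and 32.9% of those of *Gbp6* occur in *Gbp10*, so UMIs of *Gbp6* and *Gbp10* cannot be fully separated. For *Gbp4* the share was 6.08%, for *Gbp3* 0.375%, and for the other members 0.

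After the filters on genes and mitochondrial UMIs, 10876 of 17426 barcodes were kept, and the libraries held 26549922 to 50731370 UMIs. Cells were grouped without using the Gbp genes, and types were named from markers. Clusters left unnamed held 2472 of the kept barcodes (22.7%), which entered no level or test below. The largest of these clusters, of 1329 barcodes, had *Gbp6* among its leading genes. PP-cells (104), T and B cells (41) and Schwann cells (22) were also left out. β-cells ranged from 447 to 1661 per library, α-cells from 51 to 106, macrophages from 28 to 72 and endothelial cells from 14 to 52. δ-cells (7 to 85) and mesenchymal cells (9 to 36) fell below 10 cells in cytokines replicate 1, and that library was left out of their fits. Ductal (at most 13) and acinar cells (at most 18) were too few for a test. Of the defining markers, 12 of 12 were highest in their own type for macrophages, 10 of 10 for endothelial cells, 10 of 10 for acinar cells, 8 of 8 for ductal cells, 8 of 9 for β-cells and mesenchymal cells, 6 of 7 for α-cells and 4 of 5 for δ-cells. Untreated and cytokine-treated β-cells fell mostly in different clusters, the latter in clusters led by *Il4i1*, *Lcn2* and *Cfb*, as did endothelial cells, where the cytokine cluster was led by *Timp3*, *Ly6c1* and *Ly6a*. Any 2 libraries shared at most 2 kept barcodes. Insulin RNA gave a measure of β-cell RNA in other cells: in cytokine-treated libraries it stood at no more than 1.66% of the β-cell level in macrophages, endothelial and mesenchymal cells, at up to 14.3% in α-cells, and at 29.0% and 34.2% in the acinar cells of cytokines replicates 1 and 2.

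Before cytokines the family was low in every cell type, and *Gbp7* was its most abundant member in the endocrine cells. In untreated β-cells the 9 members summed to 15.7 CPM in replicate 1 and 22.5 CPM in replicate 2. *Gbp7* made 8.59 and 9.52 CPM of this, or 54.8% and 42.3% of all Gbp UMIs. Each of the other 8 members lay at or under 3.54 CPM in both untreated libraries. α-cells had 19.6 and 15.4 CPM of *Gbp7*, and δ-cells no more than 18.0 CPM. In endothelial cells the family stood higher without cytokines, at 60.2 and 134 CPM, and in macrophages at 50.6 and 100 CPM, above both untreated β-cell values. *Gbp2* stood at 14.0 and 51.0 CPM in endothelial cells and 16.9 and 29.2 CPM in macrophages, against 1.74 and 2.51 CPM in β-cells, and *Gbp3* and *Gbp9* were also higher than in β-cells in both libraries of each type. Untreated *Gbp3* was at no more than 19.0 CPM in endothelial cells (8 and 13 UMIs) and at 16.9 and 16.7 CPM in macrophages, against 2.45 and 2.96 CPM in β-cells. The untreated levels of *Gbp2* rest on 7 and 35 UMIs in endothelial cells and on 6 and 21 in macrophages, and no test of untreated levels alone was made.

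With cytokines, every member rose in β-cells. The fits within a cell type held no term for the islet pool, which a replicate block added as an alternative. All 9 members were tested and all 9 were called higher (edgeR quasi-likelihood test, adjusted p under 0.05), where 23.8% of the 12772 genes tested rose. Their median log2 change was 8.36, against 0.0012 for all genes tested. *Gbp2*, whose product coats vacuoles of intracellular parasites, rose from 1.74 and 2.51 CPM to 1164 and 751 CPM in replicates 1 and 2, or by 9.06 on the log2 scale (SE 0.33, edgeR, adjusted p = 6.75e-07). *Gbp5*, which promotes inflammasome assembly, rose from 0.370 and 0.450 CPM to 128 and 100.6 CPM (8.36, SE 0.23, edgeR, adjusted p = 3.32e-07). For both genes the treated and untreated libraries were far apart compared with the difference between replicates. *Gbp3* reached 464 and 311 CPM and *Gbp4* reached 340 and 247 CPM. *Gbp8* reached 269 and 176 CPM, and *Gbp9* 140 and 91.1 CPM. *Gbp7*, which started highest, had the smallest change, from 8.59 and 9.52 to 152 and 151 CPM (4.29, SE 0.16, edgeR, adjusted p = 6.75e-07). For *Gbp10* the untreated libraries held 1 UMI each, and its 36.7 and 47.5 CPM under cytokines gave a ratio of 1029 with a 95% counting interval of 284 to 8500.5.

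*Gbp6* behaved differently from the rest between replicates. It reached 139 CPM in cytokines replicate 1 and 359 CPM in replicate 2, and 124 and 801 CPM with NMMA added, while the untreated libraries had 0.540 and 3.54 CPM. Its log2 change in β-cells was 7.30 (SE 1.91, edgeR, adjusted p = 0.0387), and the call was lost when any 1 library other than the 2 with cytokines and NMMA was left out (log2 change 6.38 to 9.02, adjusted p up to 0.163 over all alternatives). Replicate 2 was higher than replicate 1 in every cell type with both cytokine libraries in the fit, most widely in endothelial cells, at 103 and 909 CPM with cytokines and 75.0 and 700 CPM with NMMA added. The replicates were 2 pools of islets, and their counts were also made with different versions of Cell Ranger and different gene lists, so these cannot be told apart.

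α-cells showed the same breadth as β-cells. All 9 members were tested and called higher (edgeR), where 12.7% of 9859 genes rose. *Gbp2* rose from 1 and 2 UMIs to 811 and 404 CPM, a ratio of 579 (95% counting interval 198 to 2812), and *Gbp4* from 1.57 and 0 CPM to 508 and 261 CPM. *Gbp5* and *Gbp10* had no UMI in the untreated α-cells and were at least 68.9-fold and at least 52.6-fold higher, taking 3 UMIs over the untreated group as the floor. *Gbp6* was called (7.32, edgeR, adjusted p = 0.0373) but lost the call without any 1 library other than the 2 with cytokines and NMMA (adjusted p up to 0.166). RNA carried from β-cells would make up 14.3% and 15.2% of the Gbp UMIs of the α-cells in cytokines replicates 1 and 2, if insulin RNA is its measure. With such genes at their bound, the median log2 ratio of summed UMIs over the 9 members was 6.18 in α-cells and 8.23 in β-cells, and by the same measure 6.68 in δ-cells, 4.25 in macrophages, 5.76 in endothelial cells and 5.21 over 8 members in mesenchymal cells. Bounds stood in for 2 members in α-cells, 1 each in δ-cells and macrophages, 3 in endothelial and 4 in mesenchymal cells, so these medians can be too low by unlike amounts. The fitted medians were 6.31 in endothelial and 6.95 in mesenchymal cells, the other order. The fitted median of all genes tested lay between -0.07 and 0.0012 in the 6 cell types. With total UMIs, the scaling of the ratios, it lay between -0.51 and 0.065.

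In δ-cells, 7 of 9 members tested were called higher (edgeR), where 4.02% of 9823 genes rose. The comparison rests on 1 cytokine library with 13 cells, which was assumed to vary as the other libraries do. *Gbp2* stood at 535 CPM in that library, against 4 and 1 UMIs in the untreated libraries (7.22, SE 0.41, edgeR, adjusted p = 2.81e-09). *Gbp6* (401 CPM, adjusted p = 0.244) and *Gbp10* (64.7 CPM, adjusted p = 0.174) were not called by edgeR, and both were called in the fit with a replicate block (adjusted p = 3.8e-40 and 1.62e-08). The 7 cells of cytokines replicate 1, which entered no test, had 1023 CPM of *Gbp2*.

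In macrophages 8 members could be tested and all 8 were called higher (edgeR), where 3.82% of 5156 genes rose. *Gbp10* was not tested, with 1 and 4 UMIs under cytokines and 0 untreated. *Gbp2* rose from 16.9 and 29.2 CPM to 1537 and 1292 CPM (5.95, SE 0.80, edgeR, adjusted p = 0.0187), and *Gbp4* from 0 and 11.1 CPM to 501 and 382 CPM (5.99, SE 0.52, edgeR, adjusted p = 2.43e-05). The call of *Gbp2* was lost without any 1 library other than the 2 with NMMA alone (5.69 to 6.49, adjusted p up to 0.152), and that of *Gbp6*, which had 2 untreated UMIs, without either untreated library or cytokines replicate 2 (adjusted p up to 0.102). *Gbp3*, *Gbp5*, *Gbp7*, *Gbp8* and *Gbp9* kept their calls in each of the 15 alternatives.

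In endothelial cells 7 of 9 members were called higher (edgeR), where 4.65% of 7503 genes rose. *Gbp2* rose from 14.0 and 51.0 CPM to 5474 and 5238 CPM (7.47, SE 0.55, edgeR, adjusted p = 0.000118). *Gbp5* had no UMI in untreated endothelial cells and 504 and 719 CPM with cytokines, at least 254-fold higher. *Gbp4* reached 1557 and 1148 CPM, from 3 UMIs in the 2 untreated libraries. *Gbp8*, with 18.7 and 20.5 CPM (4 and 8 UMIs) and none untreated, was not called (adjusted p = 0.0698, 0.0204 in the fit with a replicate block), and neither was *Gbp6* (adjusted p = 0.305, 8.71e-16 with the block). *Gbp10* was called (adjusted p = 0.0371) on 3 and 8 UMIs, and the call was lost without any 1 library other than the 2 with NMMA alone.

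In mesenchymal cells 8 members were tested and 6 were called higher (edgeR), where 1.44% of 5915 genes rose. This again rests on 1 cytokine library, with 24 cells. *Gbp2* stood at 1056 CPM there, against 20.8 and 3.18 CPM untreated (6.76, SE 1.02, edgeR, adjusted p = 0.0107), and its call was lost without untreated replicate 2 (5.89) and with scaling by total UMIs (adjusted p = 0.059). *Gbp7* stood at 399.8 CPM (5.38, SE 0.64, edgeR, adjusted p = 0.000417). *Gbp8* and *Gbp9* were not called (adjusted p = 0.207 and 0.101, and 0.115 and 0.0205 in the fit with a replicate block), and *Gbp10* had 3 UMIs and was not tested. When both cytokine conditions were compared with both conditions without cytokines, the members called higher numbered 9 in β-cells, where 24.4% of all genes tested rose, and 8 each in δ-cells, macrophages, endothelial and mesenchymal cells, where 6.14%, 7.85%, 8.01% and 2.81% rose.

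The few ductal and acinar cells also carried the family. In 6 ductal cells of cytokines replicate 1 *Gbp2* stood at 2240 CPM (300 UMIs), and in 8 cells of cytokines with NMMA replicate 1 at 2925 CPM, while 13 untreated cells held 1 Gbp UMI in all. Acinar cells had 615 CPM of *Gbp2* in 18 cells of cytokines replicate 1 and no Gbp UMI in the 10 untreated cells. With NMMA added it was at 170 CPM in 8 cells of replicate 1, where the family summed to 273 CPM, against 1431 CPM with cytokines. If insulin RNA is the measure, RNA carried from β-cells would make up 57.5% of the Gbp UMIs in those 18 acinar cells, and 0.294% in the ductal cells.

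Cell types differed in which members made up the family. Under cytokines, *Gbp2* was the most abundant member in every cell type in the fit. It made 57.8% and 52.7% of all Gbp UMIs in endothelial cells of cytokines replicates 1 and 2, and 63.3% and 58.9% with NMMA added. In macrophages the shares were 54.1%, 50.5%, 54.4% and 53.8% in the same order. In β-cells they were 41.1%, 33.6%, 39.4% and 33.0%, and in α-cells 30.6%, 24.6%, 30.2% and 28.1%. Every endothelial and macrophage library thus had a larger *Gbp2* share than every β- and α-cell library, and every α-cell library a smaller one than every β-cell library. With cytokines and no NMMA, *Gbp8* and *Gbp10* took larger shares of the summed UMIs in β- and α-cells than in macrophages and endothelial cells. *Gbp8* took 8.69% ± 1.16 of the family in β-cells (SD, n = 2 libraries with cytokines) and 5.76% ± 0.41 in α-cells, against 3.93% ± 0.08 in macrophages and 0.202% ± 0.007 in endothelial cells. *Gbp10* took 1.71% ± 0.59 in β-cells and 2.51% ± 0.35 in α-cells, against 0.242% ± 0.236 in macrophages and 0.177% ± 0.042 in endothelial cells. With NMMA added, the share of *Gbp8* as a mean over cells overlapped between α-cells (4.71% and 3.43%) and macrophages (3.30% and 5.02%). By that measure *Gbp10* took 4.59% in macrophages of cytokines replicate 2 and 2.36% in β-cells.

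**Figure D1:**
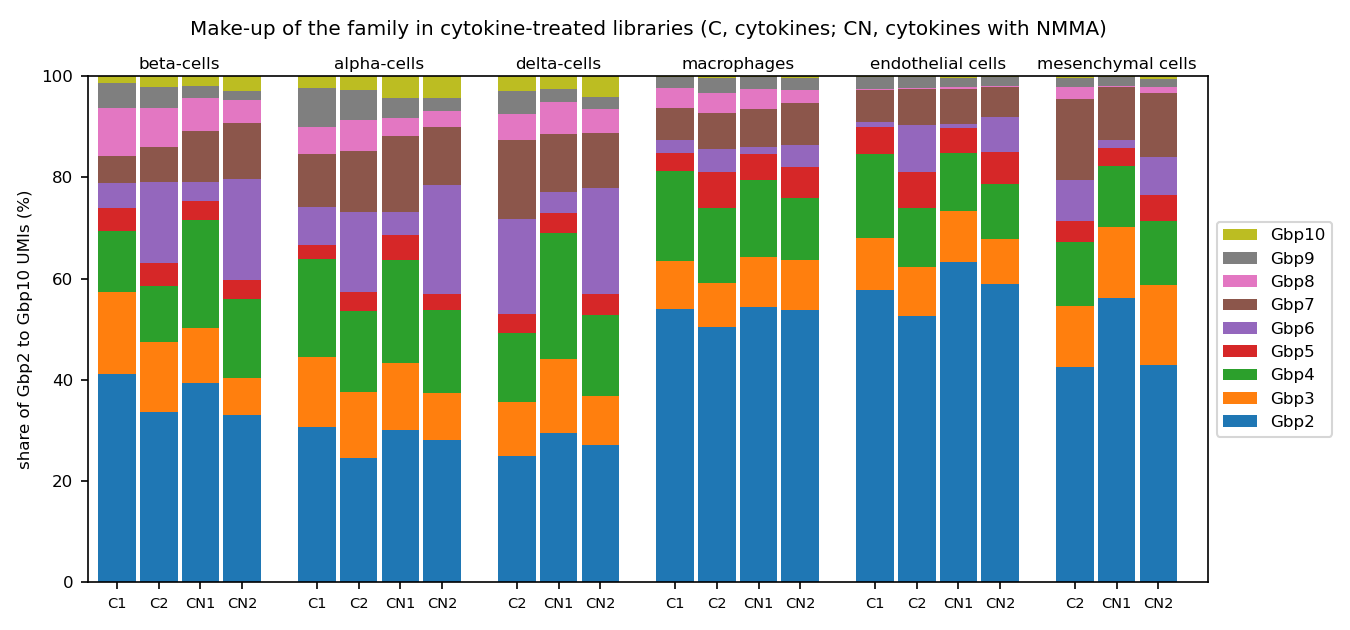
Share of the UMIs of Gbp2 to Gbp10 (percent, vertical axis) that came from each member, with 1 bar per cytokine-treated library and cell type. Gbp2 takes 52.7% to 63.3% of the bars of endothelial cells and 33.0% to 41.1% of those of β-cells, and Gbp6 is wider in replicate 2 than in replicate 1.

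These differences were tested against the β-cells of the same libraries, with the library as a term and both cytokine conditions together. Genes of all kinds differed often between cell types, so each count is read against that share. In endothelial cells 8 of 9 members differed from β-cells (edgeR), where 55.3% of 13263 genes did, 5 of them higher and 3 lower. The median of all genes was -0.39 on the log2 scale with the main scaling (trimmed mean of M values) and 0.45 with total UMIs. *Gbp2* stood at 5238 to 6027 CPM in the 4 endothelial sums and at 751 to 1340 CPM in β-cells, a log2 difference of 1.48 (SE 0.12, edgeR, adjusted p = 5e-36). *Gbp5* stood at 474 to 719 CPM against 100.6 to 156 CPM (1.34, SE 0.13, edgeR, adjusted p = 1.09e-23). *Gbp4* (0.60), *Gbp3* (0.56) and *Gbp7* (0.54) were higher by less. Endothelial *Gbp6* was lower by 0.64 with the main scaling and higher by 0.20, without a call, with total UMIs, and it was not called without cytokines replicate 1.

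*Gbp8* and *Gbp10* went the other way in endothelial cells. *Gbp8* had 18.7, 37.5, 20.5 and 5.95 CPM in endothelial cells of cytokines and cytokines with NMMA in replicate 1, then the same in replicate 2, where β-cells had 269, 220, 176 and 180 CPM. The ranges were far apart, and the log2 difference was -4.36 (SE 0.22, edgeR, adjusted p = 2.15e-82), or -3.50 with total UMIs. *Gbp10* had 14.0 to 37.5 CPM in endothelial cells and 36.7 to 121 CPM in β-cells (-2.46, SE 0.25, edgeR, adjusted p = 2.99e-22). In cytokines replicate 2, endothelial cells had 354 UMIs of *Gbp6* with 8 of *Gbp10*, and β-cells 5956 with 788. The part of their shared 3′ ends in these counts was not tested. The endothelial cells of cytokines with NMMA replicate 1 also carried macrophage markers, which summed to 1482 CPM there and to at most 15.9 CPM in the other endothelial sums. Without that library *Gbp8* and *Gbp10* kept their calls in endothelial cells, as they did in each of the 14 alternatives.

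Macrophages differed from β-cells in 6 of 9 members (edgeR), all lower, where 55.6% of 12804 genes differed. This count lay near that share. The median of all genes was -0.48. *Gbp10* was lowest, with 2.16 to 10.5 CPM (1 to 5 UMIs per library) and a log2 difference of -3.68 (SE 0.34, edgeR, adjusted p = 1.32e-26). *Gbp6* was lower by 1.95 (SE 0.17, edgeR, adjusted p = 4.16e-28) and *Gbp8* by 1.24 (SE 0.17, edgeR, adjusted p = 4.94e-13). *Gbp3*, *Gbp9* and *Gbp7* were lower by 0.60, 0.56 and 0.43, close to the median of all genes, and none of these 3 was called with total UMIs. *Gbp2* (0.25, adjusted p = 0.0675), *Gbp5* (0.07, adjusted p = 0.718) and *Gbp4* (-0.24, adjusted p = 0.136) did not pass the threshold.

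In mesenchymal cells 5 of 9 members were lower than in β-cells (edgeR), where 30.1% of 13539 genes differed and the median of all genes was -0.59. *Gbp8* had 15.9 to 55.0 CPM (-3.02, SE 0.34, edgeR, adjusted p = 2.93e-17) and *Gbp10* 5.31 to 14.0 CPM (-3.29, SE 0.48, edgeR, adjusted p = 1.94e-10). *Gbp6* was lower by 1.77, *Gbp9* by 1.26 and *Gbp4* by 0.75. With total UMIs, where the median of all genes was 0.03, these were -1.15, -0.62 and -0.11, and *Gbp9* and *Gbp4* were not called. DESeq2 called only *Gbp8* and *Gbp9*. *Gbp2* (-0.17, adjusted p = 0.727) was not shown to differ. The mesenchymal cells of cytokines with NMMA replicate 2 carried macrophage markers that summed to 406 CPM, against at most 22.3 CPM in the other mesenchymal sums.

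Among the endocrine cells the differences were smaller. α-cells were lower than β-cells in 4 members (edgeR), where 36.3% of 12752 genes differed. This count also lay near that share. The median of all genes was -0.05. *Gbp8* had 99.6 to 145 CPM in α-cells (-1.12, SE 0.10, edgeR, adjusted p = 1.98e-16) and *Gbp2* 404 to 1049 CPM (-0.85, SE 0.10, edgeR, adjusted p = 5.95e-11). *Gbp5* was lower by 0.70 and *Gbp3* by 0.41, the latter without a call under total UMIs or without cytokines replicate 2. δ-cells were lower in 7 members (edgeR), where 20.8% of 13642 genes differed, but with total UMIs 1 member was called, *Gbp7*, and it was higher (0.75). Their order against β-cells therefore depends on the scaling.

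The levels of *Gbp8* under cytokines ran from β-cells (176 to 269 CPM) and δ-cells (112 to 257 CPM), which overlapped, to α-cells (99.6 to 145 CPM) and macrophages (93.9 to 150 CPM), which also overlapped. Mesenchymal cells (15.9 to 55.0 CPM) and endothelial cells (5.95 to 37.5 CPM) overlapped with each other and lay below the rest. *Gbp10* was at 64.7 to 225 CPM in δ-cells, 45.5 to 163 CPM in α-cells and 36.7 to 121 CPM in β-cells, all overlapping, and at 14.0 to 37.5 CPM in endothelial cells, 5.31 to 14.0 CPM in mesenchymal cells and 2.16 to 10.5 CPM in macrophages. *Gbp2* was highest in endothelial cells (5238 to 6027 CPM), whose range overlapped that of no other cell type in the fits, and lowest in α-cells (404 to 1049 CPM), which overlapped β-cells (751 to 1340 CPM).

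**Figure D2:**
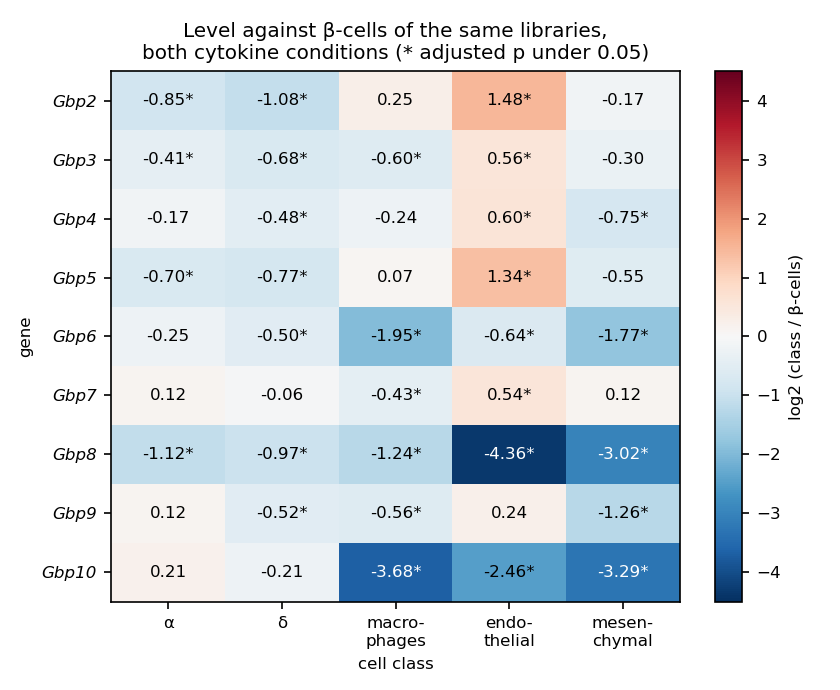
Log2 level of each member (rows) in 5 cell types (columns) relative to β-cells of the same libraries under both cytokine conditions, from the fits with the main scaling. Asterisks mark an adjusted p under 0.05, and the darkest cells are Gbp8 in endothelial cells (-4.36) and Gbp10 in macrophages (-3.68).

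The size of the response, both cytokine conditions against both without, was also compared with that of β-cells. No member differed in α-cells (edgeR, 0 also at an unadjusted p under 0.05, and 0 by DESeq2), where 4.31% of all genes did. None passed in mesenchymal cells either (2 at an unadjusted p under 0.05, and 0 by DESeq2), where 1.66% did. In macrophages 4 members (*Gbp2*, *Gbp3*, *Gbp4* and *Gbp9*) had a smaller response than in β-cells, where 6.47% of all genes differed. The difference of *Gbp2* went from -2.20 to 2.49 without NMMA replicate 2 and that of *Gbp4* from -3.53 to 0.33 without untreated replicate 2. In each case the macrophage library left in that group held no UMI of the gene, so the turned sign does not settle the direction. By summed UMIs, cytokines against untreated, *Gbp2* rose 56.8-fold in macrophages and 515-fold in β-cells, and *Gbp4* 60.1-fold and 1193-fold. The macrophage folds rest on 27 and 8 untreated UMIs, those of *Gbp4* all in replicate 2. In endothelial cells the members with a smaller response were *Gbp2* (called in 10 of 14 alternatives), *Gbp3* (11 of 14) and *Gbp9* (14 of 14), where 7.49% of all genes differed, and in δ-cells *Gbp8* and *Gbp9*, where 2.82% did. *Gbp9* was common to the 3. In untreated β-cells *Gbp9* had 0.199 and 0.515 CPM, against 8.02 and 14.6 CPM in endothelial cells and 5.62 and 9.74 CPM in macrophages, while the levels under cytokines were 140 and 91.1, 219 and 211, and 64.8 and 73.3 CPM. In endothelial cells *Gbp9* thus started higher and did not end lower. These comparisons share the β-cell sums.

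When NMMA was added to cytokines, some members were called changed in the endocrine cells, in α-cells at about the share of all genes. In β-cells 3 of 9 members tested differed between cytokines with NMMA and cytokines (edgeR), where 19.4% of all genes did, and all 3 were higher. *Gbp7* rose from 152 and 151 CPM to 345 and 441 CPM (1.16, SE 0.14, edgeR, adjusted p = 0.00246), and no alternative of 15 ended that call. *Gbp4* rose from 340 and 247 CPM to 721 and 619 CPM (0.98, SE 0.21, edgeR, adjusted p = 0.0134). *Gbp10* rose from 36.7 and 47.5 CPM to 67.8 and 121 CPM (0.95, SE 0.27, edgeR, adjusted p = 0.0494). For all 3 the libraries with NMMA lay above those without. *Gbp9* had 140 and 91.1 CPM with cytokines and 80.0 and 68.6 CPM with NMMA added, which missed the threshold (-0.85, adjusted p = 0.0511). In the edgeR fit with a replicate block 5 members were called, with *Gbp9* (adjusted p = 4.46e-05) and *Gbp3* (-0.41, adjusted p = 0.0137) lower. No share of all genes is given for that fit, so its count is not read against one. The call of *Gbp10* was lost without any 1 of 5 libraries (cytokines replicate 1 or 2, untreated replicate 1 or 2, cytokines with NMMA replicate 2), and that of *Gbp4* without cytokines replicate 2 or cytokines with NMMA replicate 1. As a share of the family, *Gbp4* went from 11.5% ± 0.66 to 18.3% ± 4.08 and *Gbp3* from 15.1% ± 1.74 to 9.19% ± 2.45 (SD, n = 2 each), while *Gbp2* stood at 37.4% ± 5.28 and 36.2% ± 4.55.

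**Figure D3:**
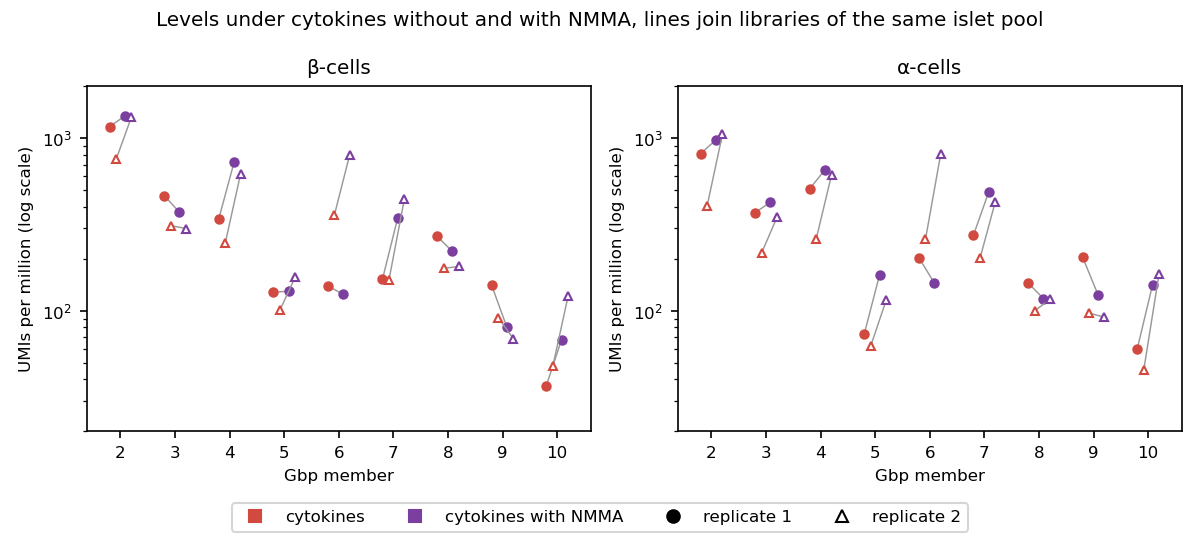
Level of each member in CPM (log axis) in β-cells (left) and α-cells (right) with cytokines and with cytokines and NMMA, with lines joining libraries of the same islet pool. The lines of Gbp4, Gbp7 and Gbp10 go up and those of Gbp9 go down in both pools and both cell types.

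In α-cells 1 of 9 members tested, *Gbp10*, was called higher with NMMA (edgeR). Of all genes 11.4% differed, so this count lay near that share. *Gbp10* went from 60.0 and 45.5 CPM to 141 and 163 CPM (1.17, SE 0.24, edgeR, adjusted p = 0.00595), and the call was lost without cytokines replicate 2 (0.86). In the edgeR fit with a replicate block 4 members were called. It added *Gbp5* (0.62, adjusted p = 0.0142), *Gbp7* (0.58, adjusted p = 0.00489) and, lower, *Gbp9* (-0.80, adjusted p = 0.000617). The share of all genes called with the block is not given for any cell type, so such counts are not read against one. In δ-cells 4 members were called higher (edgeR), where 2.18% of all genes differed, on 1 cytokine library. These were *Gbp2* (1.39), *Gbp3* (1.34), *Gbp4* (1.75) and *Gbp8* (1.27), with 8 called under the block, 1 by DESeq2 and none without cytokines with NMMA replicate 2. The calls rest on replicate 2, where the family went from 2140 to 5381 CPM. In replicate 1, whose 7 cells with cytokines entered no fit, it was at 3830 CPM with cytokines and 3766 CPM with NMMA added, and *Gbp8* was at 441 and 242 CPM. In macrophages, endothelial and mesenchymal cells no member was called (edgeR, 2, 0 and 0 at an unadjusted p under 0.05, and 0 by DESeq2 in each), where 0.116%, 0.0% and 0.0845% of all genes differed. In macrophages *Gbp7* had 179 and 181 CPM with cytokines and 289 and 297 CPM with NMMA added (0.69, SE 0.24, edgeR, adjusted p = 0.535), and in endothelial cells 606 and 716 CPM and then 661 and 601 CPM (-0.04, SE 0.26, edgeR, adjusted p = 0.999). Whether the effect of NMMA differs between β-cells and these types was not tested. With NMMA alone no member tested was called in the 6 cell types (edgeR and DESeq2, with 2 members in δ-cells, 1 in macrophages and 0 elsewhere at an unadjusted p under 0.05), where 0.0% of all genes were called in each. *Gbp10* was not tested in macrophages and mesenchymal cells, and the lack of calls does not show that levels were unchanged.

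The members were then followed within single cells. To compare cells of unequal depth, each β-cell was thinned to 9500 UMIs. In untreated β-cells 11.8% and 19.2% of cells had a UMI of any member, and with cytokines 98.2% of 1109 and 91.7% of 480 cells did. A β-cell had a UMI of a median of 6 members in both cytokine libraries, and of 6 and 7 with NMMA added. Thinned to 1000 UMIs so that cell types could be compared, *Gbp2* was found in every one of the 15, 14, 23 and 33 endothelial cells of cytokines and cytokines with NMMA in replicate 1, then the same in replicate 2. In β-cells *Gbp2* was found in 57.9%, 58.9%, 42.3% and 54.4% of cells at that depth, in the same order. *Gbp4* was found in 86.7%, 78.6%, 65.2% and 66.7% of endothelial cells and in 25.2%, 43.5%, 19.3% and 37.6% of β-cells. At 1000 UMIs *Gbp8* was found in 21.8%, 19.5%, 13.5% and 15.5% of β-cells and in 6.67%, 7.14%, 4.35% and 0% of endothelial cells. The order of the cell types at equal depth was thus opposite for *Gbp2* and *Gbp8*, as it was for the summed levels. Without thinning, *Gbp2* was found in 84.8% to 95.0% of β-cells and *Gbp8* in 9.09% to 28.6% of endothelial cells. Of the Gbp UMIs of the endothelial cells in these 4 libraries, RNA carried from β-cells would make up at most 0.298% by the insulin measure.

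Members occurred together in β-cells. In cytokines replicate 1, 87.4% of the 1040 β-cells with a UMI of *Gbp2* also had one of *Gbp3*, against 27.5% of the 69 cells without *Gbp2*. The shares were 85.8% and 21.8% in cytokines replicate 2, and 91.5% and 29.8%, then 90.7% and 13.2%, in the 2 libraries with NMMA added. Over all 36 pairs of members the median phi coefficient, a correlation of presence, was 0.156, 0.205, 0.280 and 0.357 in cytokines replicate 1, cytokines with NMMA replicate 1, cytokines replicate 2 and cytokines with NMMA replicate 2, and no pair was negative. In cytokines replicate 1 the median was 0.139 for pairs within chromosome 3, 0.146 within chromosome 5 and 0.159 for pairs across them, while in cytokines with NMMA replicate 2 it was 0.487, 0.339 and 0.341. These are descriptions of cells that share a library and a depth. In endothelial cells *Gbp2* was present in every cell, so its pairs gave no coefficient. Over the pairs with one, the endothelial medians lay between -0.080 and 0.045, and the mesenchymal medians between -0.046 and 0.040. Medians ran from -0.0016 to 0.408 in δ-cells, 0.0058 to 0.183 in macrophages and 0.111 to 0.248 in α-cells. These rest on fewer cells than in β-cells and on a depth set for each cell type, so the types are not ranked by them.

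A few β-cells under cytokines had no member at all at 9500 UMIs. They made 1.80% and 8.33% of β-cells with cytokines and 3.04% and 6.59% with NMMA added, or 20, 40, 19 and 24 cells. Of these, 95.0%, 100%, 84.2% and 95.8% lay in the cluster led by *Hspa1a* and other heat-shock genes. *Hspa1a*, an inducible chaperone, stood at 4828, 3470, 2397 and 4351 CPM in the cells with no member and at 228, 212, 105 and 82.8 CPM in those with 7 to 9 members. *Nos2* was at 0, 3.10, 5.20 and 7.27 CPM and 266, 219, 700.4 and 688 CPM in the same 2 groups, and the immunity-related GTPase gene *Iigp1* at 7.31, 6.20, 26.0 and 14.5 CPM and 293, 414, 1245 and 1803 CPM. Cells with no member had low levels of both genes in all 4 libraries, and cells with 1 to 3 members lay between. Before thinning, the cells with no member had a lower median depth (16614 to 19778.5 UMIs) than those with 7 to 9 (24303 to 32824.5 UMIs), and the part of depth in this was not tested. The number of members is a range and not a cell type.

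**Figure D4:**
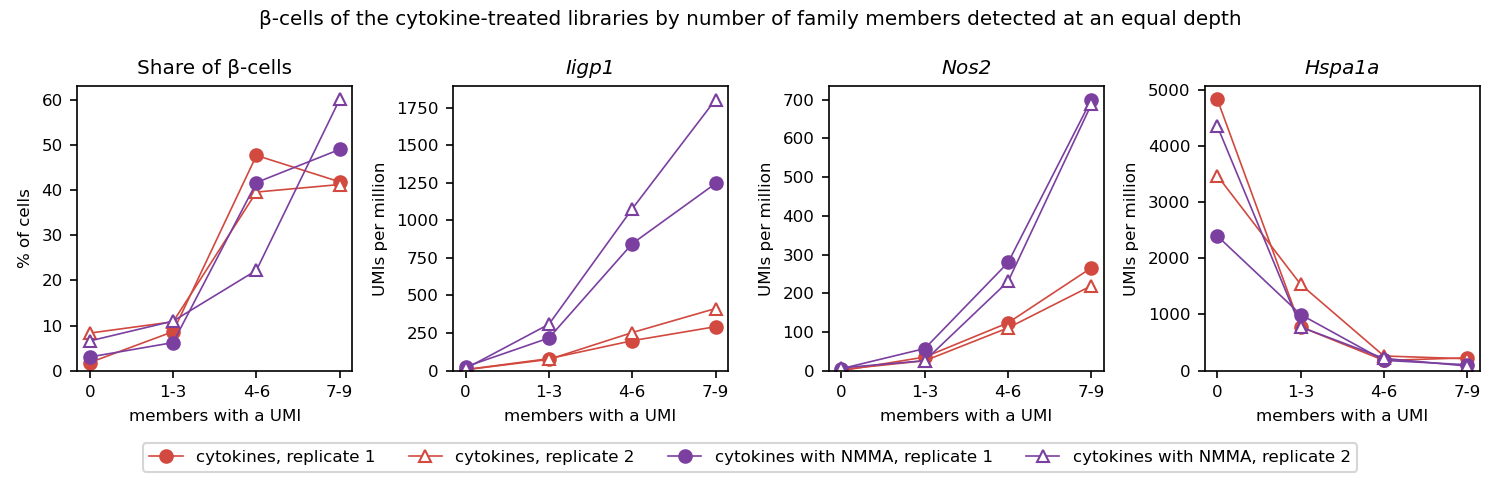
β-cells of the 4 cytokine-treated libraries grouped by the number of members with a UMI at 9500 UMIs per cell (horizontal axis), with the share of cells (percent) and the level of Iigp1, Nos2 and Hspa1a (CPM) as 1 line per library. In each library Iigp1 and Nos2 are higher with 7 to 9 members than with none, and Hspa1a is lower.

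Of 7 immunity-related GTPase genes, whose products act with guanylate binding proteins at pathogen vacuoles, 7 rose with cytokines in β-cells, 6 in α-cells, 5 in δ-cells, 6 of the 6 tested in macrophages, and 6 each in endothelial and mesenchymal cells (edgeR, with the shares of all genes given above). *Igtp* rose by 6.22 in β-cells and 8.96 in endothelial cells on the log2 scale. All 7 were higher again with NMMA in β-cells, from 0.86 for *Irgm1* to 2.25 for *Tgtp2*.

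Over 50 sums of a cell type and library, genes whose pattern was much like the summed level of the 9 members, by Pearson correlation of log2(CPM + 1) among 6220 genes, included *Irgm1* (0.97), *Igtp* (0.96), *Irf1* (0.95) and *Dtx3l* (0.94). Each member was also set against the sum of the other 8: *Gbp3* was closest (0.96), and *Gbp8* (0.82), *Gbp10* (0.84) and *Gbp6* (0.90) were farthest. The sums share libraries and conditions, and the coefficients are a description. *Gbp2b*, the neighbour of *Gbp2* with the same ISRE core, stayed near 0 beside it, with 16 UMIs in 13 β-cells of cytokines replicate 1 where *Gbp2* had 34060 UMIs. Its highest level was 34.5 CPM in macrophages of cytokines with NMMA replicate 2, from 18 UMIs in 5 cells, while the other macrophage libraries had 0 or 1 UMI.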

How the data were processed

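Single-cell libraries of islet cells from 8 cultures were used (4 conditions, 2 islet pools). Per the labels and file headers, the authors aligned reads to mm10 with Cell Ranger (3.0.0 for replicate 1, 6.0.0 for replicate 2) and deposited raw UMI counts per gene and cell. Barcodes with 200 genes or more, at most 5500 (replicate 1) or 6500 (replicate 2) genes and at most 10% mitochondrial UMIs were kept. Clustering (scanpy 1.11.5, 2000 variable genes without Gbp genes, 30 components, 20 neighbours, resolution 1.0) gave 22 clusters, named from markers or left unnamed. The 99 barcodes called as doublets (0.910%) were kept, their removal being an alternative. Counts were summed per cell type and library, with at least 10 cells. edgeR 4.0.16 (quasi-likelihood, TMM, filtered) was fitted over all conditions of a cell type, without a term for the pool. Comparisons with β-cells were fitted over both cell types with library as a term. Benjamini-Hochberg adjustment was over all genes. Alternatives were DESeq2 1.42.0, total UMIs, no filter, a replicate block, a minimum of 20 cells, Gbp genes used in clustering, and leaving out each library. Replicate numbers mark the islet pool, and same-numbered libraries deviated together (β-cells, r = 0.604 to 0.699 over 6 pairs, and at least 0.154 in every other pair). Intervals are 95% exact and cover counting error only. The named genes are the 9 members, and the immunity-related GTPase list is described by counts. The list of signalling genes is not reported here. Members and lists were chosen with earlier results of these data known.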

Additional observations from a re-analysis of the deposited data

Results flagged for a closer look

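In 9 cases the response to cytokines (both cytokine conditions against both without) differed from that of β-cells by a test of the difference itself, and each was smaller than in β-cells. In macrophages the log2 differences were -2.20 for *Gbp2* (SE 0.34, edgeR, adjusted p = 4.4e-07), -3.04 for *Gbp3* (SE 0.39), -3.53 for *Gbp4* (SE 0.84) and -4.52 for *Gbp9* (SE 0.65). The value of *Gbp2* became 2.49 without NMMA replicate 2, which leaves NMMA replicate 1 with no UMI of it in macrophages, and that of *Gbp4* became 0.33 without untreated replicate 2. In endothelial cells they were -0.97 for *Gbp2* (SE 0.25), -1.20 for *Gbp3* (SE 0.31) and -3.92 for *Gbp9* (SE 0.43). Those of *Gbp2* and *Gbp3* lost their calls without untreated replicate 2 (-0.47 and -1.15) or NMMA replicate 2 (-0.75 and -0.72), and that of *Gbp2* also without cytokines replicate 1 (-0.79). In δ-cells they were -2.23 for *Gbp8* (SE 0.38) and -2.80 for *Gbp9* (SE 0.82), the latter not called without untreated replicate 2 (-0.11), cytokines with NMMA replicate 1 or NMMA replicate 2. Untreated levels in the smaller cell types rest on few UMIs. No outlying sample could be looked for, since groups held 2 libraries.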

How the results depend on the processing

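Of the counts and shares recomputed under alternatives, 446 stayed within their limits and 30 moved. For NMMA added to cytokines, the replicate block gave 5 members called in β-cells, 4 in α-cells and 8 in δ-cells, against 3, 1 and 4. Leaving the low-count filter out gave 5 in β-cells and 3 in α-cells, total UMIs gave 3 in α-cells and 2 in δ-cells, and DESeq2 gave 1 in δ-cells. Leaving out 1 library gave 1 to 2 in α-cells and 0 to 4 in δ-cells. The shares of all genes called under these alternatives are not given, so the counts show only how the calls moved. Of the 2 members whose response differed in δ-cells, 1 was left with no filter, 1 with total UMIs, and 1 to 2 without 1 library. The count was 2 to 6 in macrophages and 1 to 3 in endothelial cells without 1 library. Against β-cell levels, δ-cells had 3 members by DESeq2, 1 with total UMIs and 4 to 7 without 1 library, and mesenchymal cells had 2 by DESeq2. The share of cells with any member was 93.9% in α-cells and 95.8% in mesenchymal cells without thinning, and the share of the leading member taken as a mean over cells was 21.1% in δ-cells and 48.4% in macrophages. Among single members, 9 values turned sign where at least 1 of the 2 fits compared made a call, and others that neither fit called also turned sign. With total UMIs the δ-cell levels against β-cells were 0.12 for *Gbp3*, 0.33 for *Gbp4*, 0.030 for *Gbp5*, 0.30 for *Gbp6*, 0.75 for *Gbp7* and 0.29 for *Gbp9*, and the endothelial level of *Gbp6* was 0.20. The others were the macrophage responses, which ranged from -2.84 to 2.49 for *Gbp2* and from -4.02 to 0.33 for *Gbp4* without 1 library. The causes were not tested. δ- and mesenchymal cells could not be fitted without cytokines replicate 2. With 2 pools per condition, p-values of the fits within a cell type measure the spread between pools and cultures. In the comparisons with β-cells each library was a term. Those p-values measure how the difference between the 2 cell types varied over libraries of a condition. On simulated counts the fit recovered 92% of genes changed 8-fold and 46% of those changed 2-fold in β-cells, and 30% of 2-fold changes in α-cells, 16% in macrophages, 10% in endothelial cells, 1% in δ-cells and 0% in mesenchymal cells. Of the simulated calls 11.5% were false in β-cells and 12.7% in mesenchymal cells. The simulated libraries varied independently, without the shared deviation of a pool, so these rates need not hold for the real libraries.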
